A study of Sus scrofa with 20 samples.

Results

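The genes described here are 8 components of the myostatin and activin pathway, measured in the longissimus muscle of the back of 20 female pigs. They are the ligand genes MSTN and INHBA, the ligand antagonist FST, the receptors ACVR2B and ACVR1B, and the intracellular mediators SMAD2, SMAD3 and SMAD7, out of 13541 genes that the array annotation names. Their probe sets were found by gene symbol. The probe set with the highest mean over the 20 arrays stands for each gene, and the others are given beside it. In all 26 probe sets carried a member's symbol, of which 21 lay above the filter on dim probe sets, a mean log2 signal of 1.75. Every member was tested with at least its brightest probe set. The pigs fell into a low and a high group of residual feed intake (RFI), 10 animals each. RFI is feed eaten above the amount predicted from an animal's growth and upkeep, and a low value marks a feed-efficient pig. All animals were female, and the labels name no treatment, breed, age, litter or batch. One array with a single biotin label was hybridised per animal, and the values are the log2 signals deposited by the authors.

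Myostatin, the product of MSTN, and activin A, a dimer of the INHBA product, are secreted ligands of the transforming growth factor beta family that restrain the growth of muscle fibres. They bind the type II receptor ACVR2B and its relative ACVR2A, which bring in a type I receptor such as ACVR1B. The type I receptor phosphorylates SMAD2 and SMAD3, which enter the nucleus with SMAD4. Follistatin, encoded by FST, binds and blocks both ligands outside the cell, and SMAD7 is an inhibitory SMAD that acts on the receptors. Loss of myostatin gives the heavily muscled phenotype known in cattle and other animals.

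The arrays differed more in background than in overall level. Array means lay between 3.33 and 3.35, and the signal of the 69 background control probe sets averaged 3.64, from 3.46 to 3.71 in 16 arrays and from 3.83 to 3.90 in the other 4, which stood apart. Those 4 arrays belonged to low RFI replicates 7, 9 and 10 and high RFI replicate 9. Group differences and correlations that rest on them are given with and without them. For relations to the background signal itself, r is given only without them. The muscle genes ACTA1 (13.9) and CKM (13.2) were bright in these samples, whereas ALB, a liver gene, stood at 2.25. In whole muscle, fewer cells of a type and less RNA per cell cannot be told apart.

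No member passed the test between the groups. At a Benjamini-Hochberg adjusted p under 0.05, limma called 0% of the 33405 tested probe sets and 0 of the 8 members, and an exact rank test also called 0 probe sets. The unadjusted limma p was under 0.05 in 1306 probe sets, or 3.91% of those tested, and the unadjusted rank test p in 1155. Among the brightest probe sets of the members, 1 of 8 (MSTN, lower in low RFI) reached an unadjusted p under 0.05, where 1.43% of all tested probe sets did so in that direction, and 0 did in the rank test. Among all 21 tested member probe sets a second one did (SMAD7, higher in low RFI), where 2.48% of all did. In 6 of the 8 the mean was lower in low RFI, with a median difference of -0.05, against a median of 0.0024 over all tested probe sets. The 95% interval of every member's difference in signal lay within a 2-fold change, with outer bounds of 0.560 and 1.29 for the ratio of low to high RFI. That was also so for 97.3% of all tested probe sets. For MSTN and INHBA, whose signals lay below the mean background signal, such an interval bounds the signal and not the transcript. Of all tested probe sets, 55.7% had a mean above that background signal, so lying below it is not particular to these genes.

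**Figure D1:**
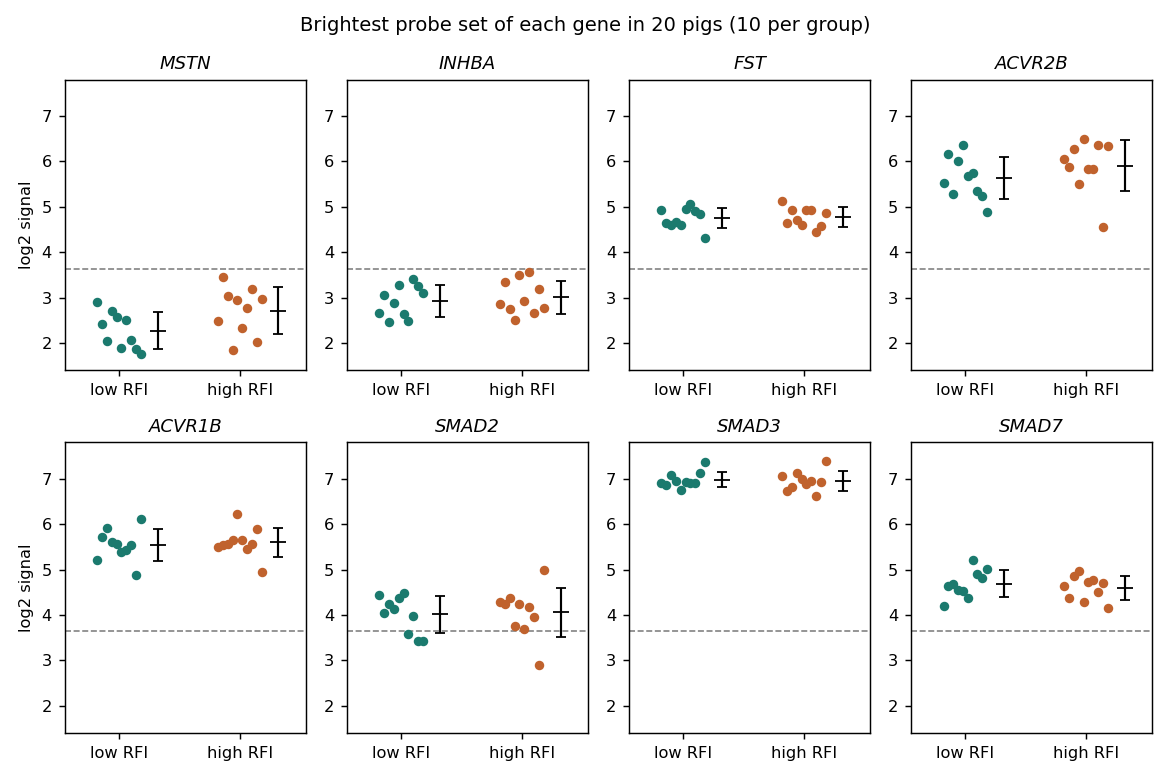
Log2 signal of the brightest probe set of each of the 8 genes (vertical axis) in 10 low RFI and 10 high RFI pigs (points, 1 per animal), with the mean and SD beside each group and the mean background control signal of 3.64 as a dashed line. The groups overlap for every gene, and MSTN and INHBA lie below the line in both groups.

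MSTN had the largest difference of the 8 genes, on a dim signal. Its single probe set read from 1.75 to 2.91 in low RFI, with a median of 2.23. In high RFI it read from 1.86 to 3.45, with a median of 2.86. The groups overlapped over most of their range, but 9 of 10 low RFI animals lay below the high RFI median and 5 high RFI animals lay above the highest low RFI animal. Mean signals of 2.27 ± 0.40 for low and 2.71 ± 0.52 for high RFI animals (SD, n = 10 each) differed by -0.43 ± 0.19 (SE; 95% interval -0.84 to -0.03), a signal ratio of 0.740. The unadjusted p from limma was 0.0357 and the adjusted p 0.998, and MSTN ranked 890 of 33405 probe sets by p. A 2-sided permutation test of the same difference gave p = 0.0521, and the rank test p = 0.0753. In all 20 animals MSTN read lower than the background controls of its own array, so the size of the difference is uncertain. Background control means spanned 1.02 to 7.84 with base composition, and which of these applies to the MSTN probes was not analysed here.

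Of the 4 arrays that stood apart in background, 3 gave low MSTN readings and 1 did not. Low RFI replicates 10 and 9 read 1.75 and 1.86 and high RFI replicate 9 read 2.03, whereas low RFI replicate 7 read 2.51. Readings as low came from high RFI replicate 4 (1.86), whose background was the next highest, and from low RFI replicate 6 (1.88), whose background of 3.64 was at the average. The highest reading, 3.45, came from high RFI replicate 2. Without the 4 arrays the difference was -0.41 ± 0.21 (SE) with an unadjusted limma p of 0.0615, and with the background signal as a covariate it was -0.34 ± 0.17 (p = 0.0512). Leaving out single animals kept the difference between -0.53 (without high RFI replicate 4) and -0.35 (without high RFI replicate 2), with an unadjusted limma p under 0.05 in 10 of 20 cases.

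INHBA encodes the subunit of activin A. Its brightest probe set read from 2.47 to 3.42 in low RFI, with a median of 2.97, and from 2.51 to 3.57 in high RFI, with a median just below that of low RFI. The groups covered nearly the same range. Mean signals of 2.92 ± 0.35 for low and 3.01 ± 0.37 for high RFI animals (SD, n = 10 each) gave a difference of -0.09 ± 0.15 (SE; 95% interval -0.40 to 0.23). In 19 of 20 animals the signal lay below the background control signal of the same array. The second probe set, nearly as bright, differed by -0.02 ± 0.12 (SE) and did not follow the first between animals (Pearson r = -0.0359, permutation p = 0.883). The other 2 INHBA probe sets averaged 1.25 and 1.09 and were below the filter. All 4 INHBA probe sets thus had means below the mean background signal.

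FST, the antagonist, was above background in every animal and among the steadiest members. It read from 4.31 to 5.05 in low RFI, with a median of 4.75, and from 4.44 to 5.12 in high RFI, with a median of 4.79. The ranges nearly coincided. The means of 4.75 ± 0.23 and 4.78 ± 0.21 (SD, n = 10 each) differed by -0.03 ± 0.10 (SE; 95% interval -0.24 to 0.19), which bounds the signal ratio between 0.846 and 1.14. A dimmer probe set with a mean of 1.81 differed by -0.04 ± 0.13 (SE). It followed the brighter one between animals, with Pearson r = 0.555 (permutation p = 0.0149) over 20 animals and 0.335 over the 16 of lower background. The third FST probe set, at 1.48, lay below the filter.

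**Figure D2:**
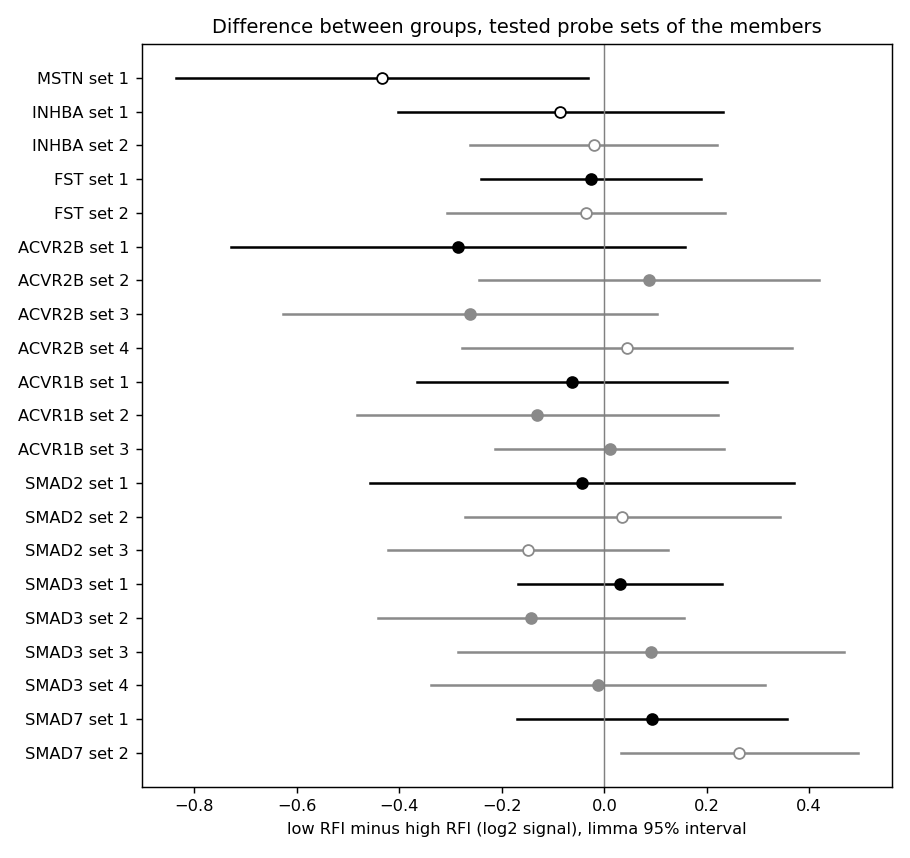
Difference of mean log2 signal, low RFI minus high RFI, with its 95% limma interval (horizontal axis) for the 21 tested probe sets of the 8 genes, numbered by brightness within a gene. Black marks the brightest probe set of a gene, and open circles mark probe sets with a mean below the mean background control signal. The intervals of MSTN and of the second SMAD7 probe set do not cross 0 before adjustment for multiple tests.

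ACVR2B, the type II receptor through which myostatin and activin act, varied more between animals than any other member. Its brightest probe set read from 4.88 to 6.37 in low RFI, with a median of 5.60, and from 4.56 to 6.48 in high RFI, with a median of 5.96. High RFI replicate 9 at 4.56 lay far below the other high RFI animals, whose lowest was 5.51. The within-group SD of 0.516 exceeded that of 87.8% of the tested probe sets. The means were 5.62 ± 0.46 and 5.91 ± 0.56 (SD, n = 10 each), a difference of -0.29 ± 0.21 (SE; 95% interval -0.73 to 0.16; unadjusted limma p = 0.196, adjusted p = 0.998). Without high RFI replicate 9 the difference was -0.44 with an unadjusted limma p of 0.0204 and an adjusted p of 0.791, and without low RFI replicate 10 it was -0.20. The mean of its 4 tested probe sets gave -0.10. Over the 16 arrays of lower background it was -0.29 ± 0.17 (SE), and with the background covariate -0.15 ± 0.15.

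The ACVR2B probe sets gave different group values. The second, at a mean of 4.95, differed by 0.09 ± 0.16 (SE), whereas the third, at 3.75, differed by -0.26 ± 0.18. Both followed the brightest probe set between animals, with Pearson r = 0.679 and 0.760 (permutation p = 0.00142 and 3e-05 over 20 animals), and with 0.768 and 0.710 over the 16 arrays of lower background. They therefore tracked 1 pattern between animals while disagreeing on the sign of a group difference that none of them resolved. Of the other 2 probe sets, 1 stood at 1.99 and followed the brightest weakly (r = 0.214), and 1 lay below the filter.

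ACVR1B, a type I receptor that carries the activin and myostatin signal into the cell, was above background in every animal with all 3 of its probe sets. The brightest read from 4.87 to 6.12 in low RFI, with a median of 5.55, and from 4.94 to 6.21 in high RFI, with a median of 5.57. The groups overlapped almost completely. The means of 5.54 ± 0.35 and 5.60 ± 0.33 (SD, n = 10 each) differed by -0.06 ± 0.15 (SE; 95% interval -0.37 to 0.24). The other probe sets differed by -0.13 ± 0.17 and 0.01 ± 0.11 (SE), and followed the brightest at r = 0.666 and 0.307 (permutation p = 0.00293 and 0.206).

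SMAD2, a mediator phosphorylated by ACVR1B, lay close to background. Its brightest probe set read from 3.43 to 4.49 in low RFI, with a median of 4.09, whereas high RFI had a median of 4.20. High RFI animals held both the lowest value of all, 2.90 in replicate 9, and the highest, in replicate 10, which read above every low RFI animal. In 5 of 20 animals the signal lay below the background of the same array. The means were 4.01 ± 0.40 and 4.06 ± 0.54 (SD, n = 10 each), a difference of -0.04 ± 0.20 (SE; 95% interval -0.46 to 0.37), and 0.06 ± 0.15 over the 16 arrays of lower background. Of the other 3 probe sets, all below mean background, the second differed by 0.03 ± 0.15 and the third by -0.15 ± 0.13 (SE).

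SMAD3, the partner mediator, lay far above background, and its brightest probe set was the steadiest of the members. It read from 6.74 to 7.36 in low RFI, with a median of 6.93, and from 6.62 to 7.40 in high RFI, with a median of 6.94. Only 11.8% of tested probe sets had a smaller within-group SD than its 0.197. The means of 6.98 ± 0.17 and 6.95 ± 0.22 (SD, n = 10 each) differed by 0.03 ± 0.10 (SE), and the 95% interval bounds the ratio of low to high RFI between 0.889 and 1.17. The other 3 probe sets, with means of 6.37, 5.88 and 5.64, differed by -0.14 ± 0.14, 0.09 ± 0.18 and -0.01 ± 0.16 (SE). They were less steady, with within-group SDs of 0.332, 0.433 and 0.368. Their 95% intervals for the ratio were wider, with outer bounds of 0.737 and 1.38. They followed the brightest probe set at r = 0.351, 0.605 and 0.467 over 20 animals (permutation p = 0.165, 0.0103 and 0.0562). Over the 16 arrays of lower background r was 0.581, 0.691 and 0.737.

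SMAD7, the inhibitory SMAD whose transcription the pathway itself induces, was tested with 2 probe sets. The brightest read from 4.20 to 5.22 in low RFI, with a median of 4.66, and from 4.15 to 4.98 in high RFI, with a median of 4.68. In SMAD7, 2 low RFI animals exceeded all high RFI animals, but the medians were nearly equal. The means of 4.69 ± 0.30 and 4.60 ± 0.26 (SD, n = 10 each) differed by 0.09 ± 0.13 (SE; 95% interval -0.17 to 0.36), and by -0.03 ± 0.13 over the 16 arrays of lower background. The dimmer probe set averaged 2.27 ± 0.29 in low RFI and 2.01 ± 0.19 in high RFI (SD, n = 10 each), a difference of 0.26 ± 0.11 (SE), with an unadjusted limma p of 0.0276, a rank test p of 0.0433 and an adjusted limma p of 0.998. Its signal was below the background of the same array in all 20 animals. It did not follow the brighter probe set (Pearson r = -0.0132, permutation p = 0.959), and without the 4 arrays its difference was 0.17 ± 0.11 (unadjusted p = 0.137).

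Between animals, some members varied together. Deviations from the group means were correlated over the 28 pairs of members. The permutation p adjusted over the 28 pairs was under 0.05 in 3 pairs, and in 0 pairs over the 16 arrays of lower background. Of 8325 named genes above background, 5.43% had an absolute r above 0.7 with MSTN over all arrays. The share was 12.0% with ACVR2B and 15.0% with SMAD2, but 0.637% with SMAD7. Absolute values above 0.7 were thus common over 20 arrays for MSTN, ACVR2B and SMAD2, and rarer for SMAD7. Of the 3 pairs only ACVR2B with SMAD2 passed that cut, so the shares do not measure values as large as those of the other pairs. Over the 16 arrays the counts of such genes were 461 for MSTN, 222 for ACVR2B, 177 for SMAD2 and 91 for SMAD7. ACVR2B and SMAD2 gave Pearson r = 0.711 (adjusted p = 0.0147) but Spearman rho = 0.511 (adjusted p = 0.105), and r was 0.435 without the 2 animals farthest from the ACVR2B median. Over the 16 arrays of lower background it was 0.356 (permutation p = 0.158). With the background signal removed from all 20 arrays r was 0.343. How far this relation rests on the arrays of high background was not tested.

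MSTN and its receptor gene ACVR2B correlated with Pearson r = 0.673 and Spearman rho = 0.642 over 20 animals (adjusted permutation p = 0.0147 and 0.0388). Within groups r was 0.652 in low RFI and 0.687 in high RFI, and it was 0.715 without the 2 animals farthest from the MSTN median. Over the 16 arrays of lower background r was 0.525 and rho 0.444 (permutation p = 0.0387 and 0.0991; adjusted p = 0.361 and 0.396), and r was 0.379 without the 2 farthest of those. With the background signal removed from all 20 arrays r was 0.455. Animals with more MSTN signal had more ACVR2B signal in both groups, but the correlation was smaller in each of these computations that set background aside.

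SMAD2 and its inhibitor gene SMAD7 ran in opposite directions. Pearson r was -0.662 and Spearman rho -0.690 over 20 animals (adjusted permutation p = 0.0147 and 0.0388), with -0.851 in low RFI and -0.531 in high RFI. The value was -0.700 without the 2 animals farthest from the SMAD2 median. Unlike the pair ACVR2B and SMAD2, it was of similar size over the 16 arrays of lower background, where r was -0.675 and rho -0.635 (permutation p = 0.00653 and 0.0134), although the adjusted p was then 0.183 and 0.263. Without the 2 farthest of those 16, r was -0.576. With the background signal removed from all 20 arrays r was smaller in size, at -0.561 (adjusted permutation p = 0.179). High RFI replicate 10, the animal of highest SMAD2 signal, had the lowest SMAD7 signal (4.15).

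FST and ACVR1B also ran in opposite directions, with Pearson r = -0.594 and Spearman rho = -0.642 (adjusted permutation p = 0.0545 and 0.0388), -0.515 without the 2 animals farthest from the FST median, and -0.488 over the 16 arrays of lower background. MSTN and SMAD3 gave rho = -0.611 (adjusted p = 0.0489) against r = -0.481 (adjusted p = 0.169), and -0.412 for r over the 16 arrays. MSTN and SMAD7 gave r = -0.514 (adjusted permutation p = 0.102), and -0.592 over the 16 arrays (adjusted p = 0.331). Over 20 arrays MSTN showed little relation to its antagonist gene FST (r = 0.0280) or to the other ligand gene INHBA (r = 0.0538). In those 2 pairs the adjusted permutation p was 0.978 and 0.966. Over the 16 arrays their r was -0.300 and 0.275 (adjusted p = 0.589 and 0.595).

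**Figure D3:**
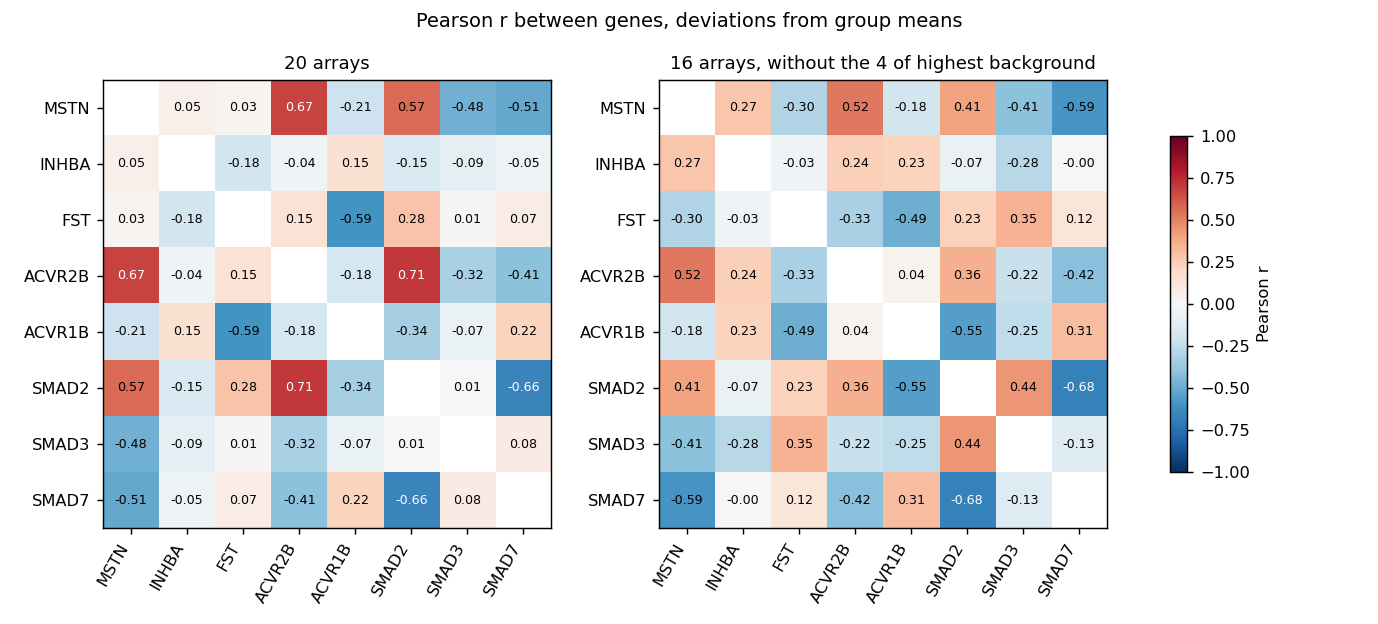
Pearson r between the 8 genes over all 20 arrays (left) and over the 16 arrays left without the 4 of highest background (right), from deviations from the group means of the brightest probe sets. Colour gives r from -1 to 1. MSTN with ACVR2B goes from 0.67 to 0.52 and ACVR2B with SMAD2 from 0.71 to 0.36, while SMAD2 with SMAD7 goes from -0.66 to -0.68.

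The background signal was also set against the members. Since 4 arrays stood apart, r was computed over the other 16, where 0 of 8 members passed after adjustment and ACVR2B had an adjusted permutation p of 0.440. Pearson r with the background signal was -0.580 for ACVR2B (rho -0.521; permutation p = 0.0216 and 0.0412), -0.451 for MSTN (rho -0.388; p = 0.0991 and 0.154), -0.347 for INHBA (rho -0.432; p = 0.203 and 0.110) and -0.282 for SMAD2 (rho -0.124; p = 0.349 and 0.662). Pearson r was also computed without the 2 animals whose signal of the gene lay farthest from its median. The values for ACVR2B, MSTN, INHBA and SMAD2 became -0.575, -0.200, -0.174 and 0.0789, the last 3 smaller in size. Leaving out such animals also narrows the range of the gene's signal, so this cannot show that the values rest on them. In the 4 arrays set apart, SMAD2 read 3.59, 3.44, 3.43 and 2.90, each below the SMAD2 reading of all other 16 animals. How far background contributes to the signals of these genes was not tested.

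**Figure D4:**
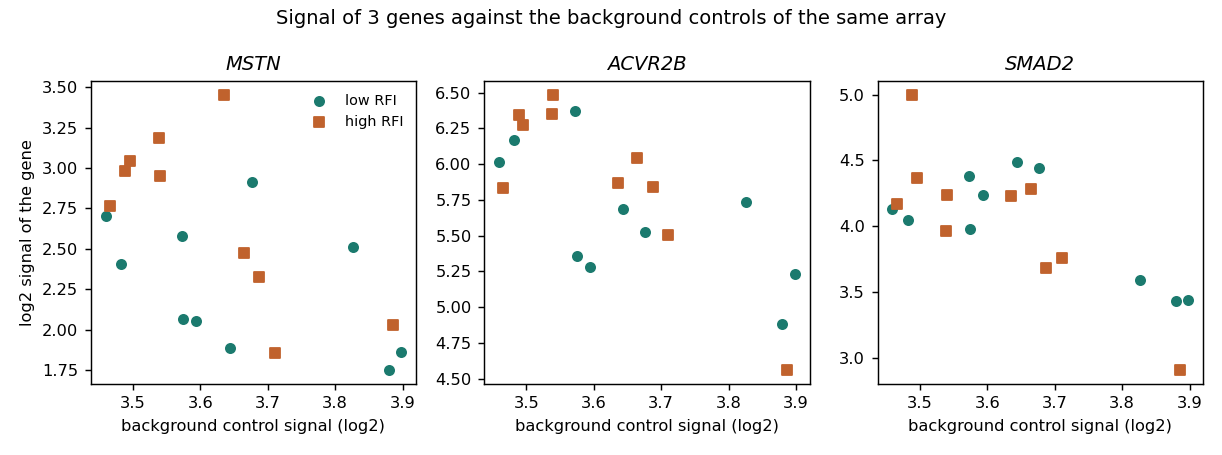
Log2 signal of MSTN, ACVR2B and SMAD2 (vertical axes, each with its own scale) against the mean log2 signal of the background control probe sets of the same array (horizontal axis), with circles for 10 low RFI and squares for 10 high RFI pigs. The 4 arrays at 3.83 to 3.90 stand apart on the horizontal axis, and SMAD2 is lowest in them.

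Members were also set against fibre type and cell type markers. Relations to 7 marker scores and the background signal were computed for the 8 genes, 64 in all, and over the 16 arrays of lower background 0 of them had an adjusted permutation p under 0.05. Over all 20 arrays the 2 that did were those of SMAD2 and ACVR2B with the background signal. ACVR2B went with the score of 11 slow fibre genes, including the slow myosin MYH7, at r = 0.613 and rho = 0.605 (adjusted permutation p = 0.0774 and 0.145). Without the 2 animals farthest from the score's median r was 0.612, and over the 16 arrays it was 0.634 (adjusted p = 0.349). With the fast fibre score ACVR2B gave r = 0.606 over 20 arrays (adjusted p = 0.0774) and 0.382 over 16. ACVR1B went with the score of 5 satellite cell markers, the muscle stem cells, at r = 0.602 and rho = 0.665 (adjusted p = 0.0774 and 0.0918), and at 0.525 over the 16 arrays. MSTN gave r = 0.525 with the fast fibre score and 0.328 with the slow fibre score (adjusted p = 0.121 and 0.501). Over the 16 arrays its values were 0.328 and 0.191.

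INHBA and the fast fibre score gave r = 0.217 over 20 arrays and 0.653 over 16 (adjusted permutation p = 0.776 and 0.349). Between the groups, the fibroblast and macrophage scores differed most of the 7 marker scores, and no score difference was tested. Low minus high RFI was -0.15 for slow fibre, -0.02 for fast fibre and 0.06 for adipocyte. It was -0.01 for endothelial and 0.0076 for satellite cell. The mean score of 9 fibroblast markers was 8.67 ± 0.14 in low RFI, from 8.47 to 8.83, and 8.49 ± 0.19 in high RFI, from 8.25 to 8.91. The score of 6 macrophage markers was 5.53 ± 0.27, from 5.23 to 5.94, against 5.28 ± 0.18, from 4.98 to 5.53 (SD, n = 10 each). Of the listed markers, 9 of 9 and 5 of 8 lay above mean background. MSTN gave r = 0.202 and -0.392 with these scores (adjusted permutation p = 0.784 and 0.369), and the part of these cells in the MSTN difference was not tested.

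The wider pathway was drawn up as 51 genes in 5 roles, of which 40 were tested. Limma called 0 of the 40 after adjustment, and 0 reached an unadjusted p under 0.05, against 3.91% of all tested probe sets. In 18 genes the mean was higher in low RFI and in 22 it was lower, with a median difference of -0.01 and a range from -0.37 to 0.23. The listed genes not analysed here included WFIKKN1, LTBP3, SMURF2, TGIF1, TGFBI and MYOG, and ACVR1C, TDGF1, SMAD1 and MYF5 lay below the filter.

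Among ligands and their processing enzymes, 5 of 9 genes were higher in low RFI, with a median of 0.04. TGFB1, the broadly acting family member, had means of 5.86 ± 0.13 (low) and 5.64 ± 0.38 (high; SD, n = 10 each), which differed by 0.21 ± 0.13 (SE; unadjusted limma p = 0.102), and by 0.31 over the 16 arrays of lower background (unadjusted p = 0.0270). GDF11, the closest relative of myostatin, differed by 0.10 ± 0.10, and INHBB, the activin B subunit with a mean below background, by -0.11 ± 0.11 (SE). Of 4 tested extracellular inhibitors, 2 were higher and 2 lower. FSTL3, a follistatin relative that binds myostatin and activin, differed by -0.15 ± 0.14, DCN, the matrix proteoglycan decorin, by 0.08 ± 0.12, and LTBP4, which anchors latent TGF beta in the matrix, by 0.06 ± 0.10 (SE).

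Among receptors 4 of 8 were higher in low RFI. BAMBI, a pseudoreceptor that dampens signalling, differed by -0.21 ± 0.15 on a mean below background, TGFBR2 by 0.10 ± 0.14 and ACVR2A by 0.10 ± 0.15 (SE). Of 10 intracellular genes 6 were lower. MAP3K7, the kinase TAK1 of the pathway's branch outside the SMADs, had the smallest p of the 40 genes. Its means of 5.32 ± 0.22 (low) and 5.57 ± 0.31 (high; SD, n = 10 each) gave a difference of -0.25 ± 0.12 (SE; unadjusted limma p = 0.0510, adjusted p = 0.998). One of its 2 tested probe sets had the opposite sign. SMAD9, which serves the BMP branch, differed by 0.20 ± 0.10 and SKIL, a repressor of SMAD activity, by -0.12 ± 0.11 (SE), both on means below background.

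Responsive genes gave the widest spread, with 6 of 9 lower in low RFI. FBXO32 and TRIM63, the muscle ubiquitin ligases atrogin-1 and MuRF1 of protein breakdown, both had lower means in low RFI. FBXO32 stood at 8.51 ± 0.55 against 8.88 ± 0.45 (SD, n = 10 each), a difference of -0.37 ± 0.21 (SE; unadjusted limma p = 0.0943), with all 3 tested probe sets lower. TRIM63 differed by -0.28 ± 0.19 (SE; p = 0.163), with both tested probe sets lower. Without the 4 arrays of highest background these differences were -0.22 and -0.20. CTGF, a connective tissue growth factor gene induced by TGF beta, differed by 0.23 ± 0.16 (SE).

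**Figure D5:**
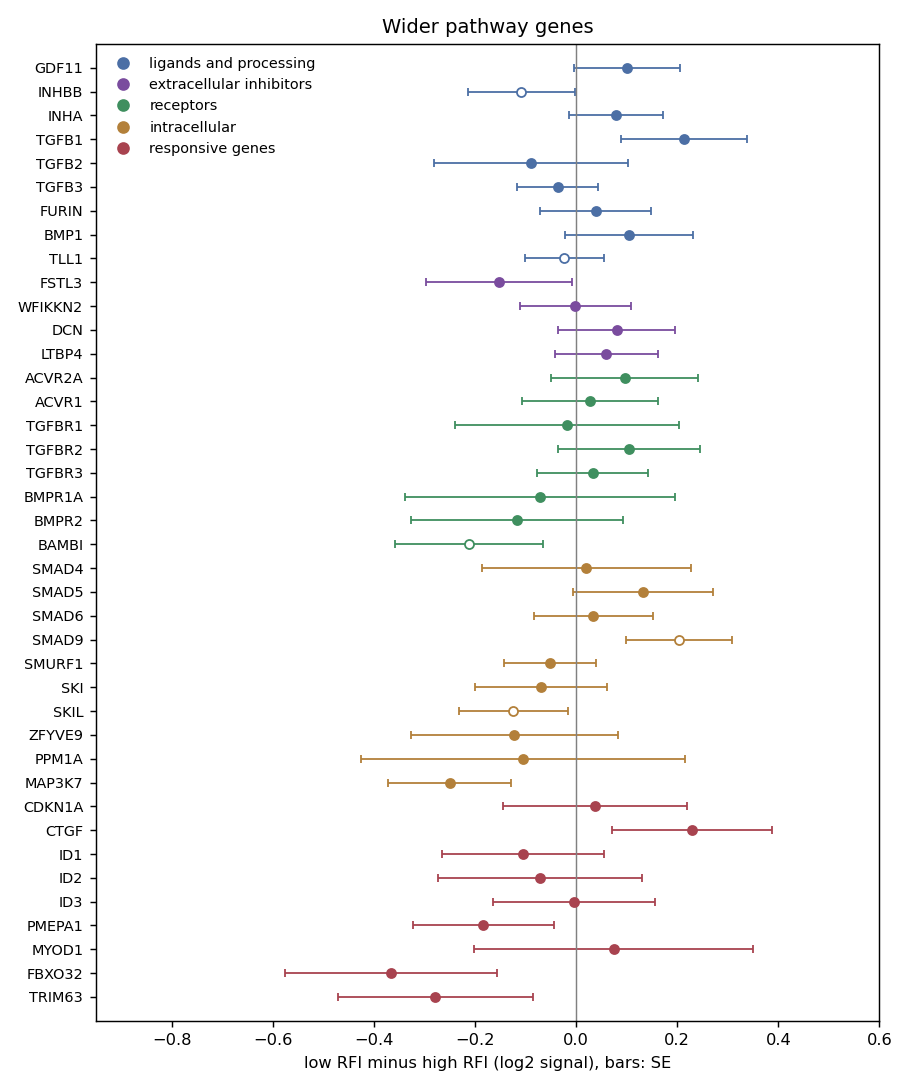
Difference of mean log2 signal, low RFI minus high RFI, with its SE (horizontal axis) for the 40 tested wider pathway genes, coloured by role, each by its brightest probe set. Open circles mark means below the mean background control signal. FBXO32 at -0.37 and CTGF at 0.23 are the extremes.

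MSTN was then set against the same 40 genes across animals, a comparison added after the data were seen. Over 20 animals 12 genes had an adjusted permutation p under 0.05 for Pearson r, 6 with positive and 6 with negative r, and over the 16 arrays of lower background 5 did. Before adjustment 18 of the 40 (45%) had a permutation p under 0.05 over 20 arrays, against 33.4% of 8325 named genes above background, and over the 16 arrays 9 (22.5%) did, against 19.9% of those genes. The share over the 16 arrays was thus near that of genes in general. SMAD4, the common partner of SMAD2 and SMAD3, gave r = 0.794 and rho = 0.802 (adjusted p = 0.0026 and 0.0024), 0.813 without the 2 animals farthest from the MSTN median, and 0.793 over the 16 arrays (adjusted p = 0.0116). DCN, whose product binds myostatin in the matrix, gave r = 0.762 and rho = 0.773, with 0.742 over the 16 arrays (adjusted p = 0.0277). DCN is also 1 of the 9 fibroblast markers, whose score gave r = 0.202 with MSTN over 20 arrays and 0.0862 over 16. BMPR1A, a BMP receptor, and PPM1A, a phosphatase of SMAD2 and SMAD3, gave 0.709 and 0.707 over the 16 arrays, and LTBP4 gave -0.719 (adjusted p = 0.0277, 0.0286 and 0.0286). Those of the 5 outside the rule for named genes were named after their values were seen.

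With the background signal removed in place of leaving arrays out, 0 of the 40 passed, the smallest adjusted permutation p being 0.0515. FURIN, a protease that matures the myostatin precursor, and BMP1, which frees myostatin from its latent complex, had r = -0.619 and -0.627 over 20 arrays and -0.542 and -0.589 over 16 (adjusted p = 0.191 and 0.124), and were also picked out after their values were seen. FBXO32 and TRIM63 gave r = 0.327 and 0.230 (adjusted p = 0.259 and 0.472). Of the 40 genes, 4 (10%) had an absolute r above 0.7 with MSTN over 20 arrays, and of the 8325 named genes 452 (5.43%) did. Many genes of the array therefore shared the MSTN pattern as closely.

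The genes most like each member are given as a description, by Pearson r of deviations from the group means over 20 animals among those 8325 genes. For MSTN they were PHTF2 (0.855), VPS13A (0.853) and KATNAL1 (0.842), and RNASEK ran most against it (-0.867). Over the 16 arrays of lower background these 4 stood at 0.875, 0.822, 0.847 and -0.893. For ACVR2B they were ARHGAP10 (0.915), CHD8 (0.912) and RAB14 (0.891), with HLX at -0.899, and over the 16 arrays at 0.803, 0.801, 0.852 and -0.811. For SMAD2 they were RCN2 (0.942), CALM2 (0.939) and PAFAH1B1 (0.936), with MAP3K12 at -0.887, and over the 16 arrays at 0.882, 0.827, 0.842 and -0.858. These 3 members shared their pattern with many genes, as 996 genes had an absolute r above 0.7 with ACVR2B and 1246 with SMAD2 over 20 arrays. Over the 16 arrays the counts were 461 for MSTN, 222 for ACVR2B and 177 for SMAD2. With the background signal removed the counts were 80 for MSTN, 29 for ACVR2B and 84 for SMAD2.

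The other members had fewer close neighbours over 20 arrays. For INHBA, CCDC12 (0.649), GFI1B (0.647) and CCM2 (0.625) came closest and CYP4A21 ran against it (-0.705), the single gene past 0.7. FST was most like NXPH4 (0.734), DNAL4 (0.711) and GGT6 (0.703), with LITAF at -0.729. ACVR1B was most like CEBPD (0.808), a transcription factor gene, ZNF346 (0.794) and CHST3 (0.775), with STARD9 at -0.816. SMAD3 was most like CD81 (0.779), PACS2 (0.737) and USF1 (0.731), with ZNF35 at -0.697. SMAD7 was most like NKX2-8 (0.811), AIRE (0.802) and DERL3 (0.801), with TMEM168 at -0.793. The number of genes with an absolute r above 0.7 was 6 for FST, 23 for ACVR1B, 7 for SMAD3 and 53 for SMAD7 over 20 arrays. It was 17 for INHBA, 23 for FST, 45 for ACVR1B, 42 for SMAD3 and 91 for SMAD7 over the 16 arrays.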

How the data were processed

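The authors deposited log2 signals of probe sets from 20 Affymetrix Snowball arrays of 1 colour, 1 array per animal. GCOS 1.1.1 is named per the submitters' processing notes, and summarisation, background correction and normalization are not given in the sources used here. Array means lay between 3.33 and 3.35, so values were tested as deposited. Of 47845 probe sets, 123 controls were left out, and those with a mean above the 30th percentile were tested. Gene names came from the platform annotation, with 404 symbols updated and microRNA probe sets not used. Groups follow the RFI label, and p-values rest on the variation between these animals.

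Tests used limma 3.58.1 in R 4.3.3 with p adjusted by Benjamini-Hochberg across every tested probe set, checked on simulated data. The simulated probe sets varied independently of each other, so the check does not cover variation shared between probe sets. Correlations used deviations from group means, 100000 permutations within groups, 2-sided. The correlations of MSTN with wider pathway genes, and those without the 4 arrays of highest background, were added after seeing the data. Scores are means of tested markers. Members and lists were chosen with earlier results of these data known. All member probe sets are named, with the 3 genes of smallest p per pathway role and, per member, the 3 most and 1 least alike genes. The number of arrays limits the precision. Sequences and genomic positions were not analysed here.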

Additional observations from a re-analysis of the deposited data

Results flagged for a closer look

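ACVR2B in high RFI replicate 9 read 4.56, where the next lowest animal of its group read 5.51. The gap of 0.492 of the group's range was above Dixon's 95% critical value for 10 samples. This was the single such case among 16 groups of values (8 genes in 2 groups), and chance alone marks about 1 group in 20. The array had the second highest background control signal. Without this animal the ACVR2B difference was -0.44, with an unadjusted limma p of 0.0204 and an adjusted p of 0.791.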

How the results depend on the processing

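Alternatives changed the filter, the normalization, array weights, covariates, the arrays used, the probe set of a gene and the test. No member passed the adjusted threshold under any of them. The count of called probe sets was 0 in all 20 arrays and 1, of no member, both without the 4 arrays of highest background and without high RFI replicate 9, so leaving out single animals gave 0 to 1. MSTN, INHBA and ACVR2B kept their sign throughout, whereas SMAD2 became 0.079 with the background covariate, 0.038 with the slow fibre covariate and 0.055 without the 4 arrays. SMAD3 became -0.040 without the 4 arrays and -0.0084 as the mean of its probe sets, and SMAD7 became -0.034 without the 4 arrays. The mean of all tested probe sets of a gene also gave 0.178 for SMAD7, -0.104 for ACVR2B and -0.053 for INHBA. With the brightest probe set these were 0.093, -0.285 and -0.086. The cause of these was not tested. Leaving out single animals gave -0.528 to -0.351 for MSTN, -0.142 to -0.023 for INHBA, -0.436 to -0.203 for ACVR2B, -0.063 to 0.022 for FST, -0.136 to 0.011 for ACVR1B, -0.172 to 0.061 for SMAD2, -0.012 to 0.080 for SMAD3 and 0.035 to 0.147 for SMAD7. The stricter filter left MSTN untested. For MSTN and INHBA, signal below the mean background makes it uncertain how far the signal follows the transcript. No paired analysis was possible because the labels give no pairs of animals.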
